A study of Mus musculus with 16 samples.

Results

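The 7 protein-coding genes of the mouse mitochondrial genome that encode subunits of respiratory complex I (mt-Nd1, mt-Nd2, mt-Nd3, mt-Nd4, mt-Nd4l, mt-Nd5 and mt-Nd6) were followed in whole inguinal mammary glands of lactating mice. They were chosen by name, are 7 of the 13 protein-coding genes of that genome and 7 of 22196 genes with summed counts, and all 7 passed the filter on low counts. RNA was sequenced in 16 libraries. The series title places them in mid-lactation, and the age label gives postnatal day 16 without saying whose age is meant. The groups had 4 libraries each: NCD control, NCD metformin, HFD control and HFD metformin. HFD is the high fat diet given in lactation, NCD is not spelled out in the labels, and metformin is a glucose-lowering drug. The labels name no strain or dose and do not state that libraries came from different animals. The p-values therefore refer to the spread among these libraries, which may be technical.

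Complex I, NADH:ubiquinone oxidoreductase, takes electrons from NADH, passes them to ubiquinone and pumps protons across the inner mitochondrial membrane. The mitochondrially encoded subunits form the core of its membrane arm, whereas the core subunits of the arm that oxidises NADH, and all accessory subunits, come from nuclear genes. Mitochondrial genes are transcribed as long polycistronic RNAs from both strands and cut into single messengers, and secretory cells of the lactating gland are rich in mitochondria. Metformin is known as an inhibitor of complex I at high concentrations. In whole tissue, fewer cells of a type and less RNA per cell cannot be told apart.

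On chromosome M (GRCm38, GENCODE M21), 6 of the genes lie on the plus strand in the order mt-Nd1 (ENSMUSG00000064341.1, from 2751 to 3707), mt-Nd2 (from 3914 to 4951), mt-Nd3 (from 9459 to 9806), mt-Nd4l (from 9877 to 10173), mt-Nd4 (from 10167 to 11544) and mt-Nd5 (from 11742 to 13565). Only mt-Nd6 (from 13552 to 14070) is read from the minus strand. Each is a single coding exon without introns. The following sequences, from the GENCODE M21 transcripts and written 5′ to 3′, show where members share bases, which bears on how reads can be assigned. In the first, capitals mark the 7 bases that are both the end of mt-Nd4l and the start of mt-Nd4. In the next pair, capitals mark the 14 bases, from 13552 to 13565, that mt-Nd5 and mt-Nd6 use on opposite strands.
mt-Nd4l into mt-Nd4: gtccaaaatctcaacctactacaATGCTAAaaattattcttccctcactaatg
End of mt-Nd5: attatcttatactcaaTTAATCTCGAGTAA
End of mt-Nd6: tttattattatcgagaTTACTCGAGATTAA
The library kit was directional, but the strand setting of the counting is unknown. Whether reads in the stretch shared by mt-Nd5 and mt-Nd6 were told apart is therefore also unknown. The starts of 3 members are printed to show that they do not open with the standard ATG, with the start codon in capitals. Of the others, mt-Nd3 opens with ATT, also not the standard ATG.
Start of mt-Nd1: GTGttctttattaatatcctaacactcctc
Start of mt-Nd2: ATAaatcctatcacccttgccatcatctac
Start of mt-Nd5: ATCaatattttcacaacctcaatcttatta
The annotated mt-Nd4 is 1378 bases long and ends in a single T, so its stop codon is not encoded whole. Base composition separates mt-Nd6 from the others: its coding strand held 28.1% G and 5.97% C, whereas that of mt-Nd1 held 11.6% G and 26.02% C.

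Nuclear copies of these genes may share their reads, and they do so to very different extents. Of all stretches of 31 bases in mt-Nd3, 98.1% also occur in Gm28438, an annotated pseudogene on chromosome 1. For mt-Nd4l the share was 98.9% (Gm10222) and for mt-Nd4 62.8% (Gm28439). These 3 copies lie next to each other on chromosome 1, between 24611535 and 24613119 on the minus strand. The share was 16.8% for mt-Nd5, 13.5% for mt-Nd2, 7.36% for mt-Nd6 and 0% for mt-Nd1, and no stretch of any member occurred in another transcript listed in the deposited files. The pseudogenes are not among the listed transcripts, so a read from one of them could be counted only for the mitochondrial gene. Levels of mt-Nd3, mt-Nd4l and mt-Nd4 are uncertain in this sense, and that of mt-Nd1 is the least so. The same holds, to different extents, for the mitochondrial genes used below for comparison. Of the stretches of mt-Co3 99.9% occur in Gm28437, of those of mt-Co2 99.5% in Gm28661 and of those of mt-Atp6 99.5% in Gm10925. For mt-Co1 it was 45.2% in Gm13340, 29.6% in Gm29216 and 2.51% in Gm11512. The least affected were mt-Atp8 with 7.47% in Gm10925 and mt-Cytb with 6.55% in Gm11410. Shares of the 13 messengers are uncertain in the same sense.

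Libraries held 8649318 to 39156650 counts over genes, the fewest in HFD control 4. Summed milk protein genes took 69.99 to 76.7% of counts, and the markers of secretory epithelium were present in every library. NCD control 3 stood apart in skeletal muscle markers (16 genes), which summed to 4876 CPM (counts relative to library size) there and to 184 CPM or less in every other library. Their defining genes Acta1 and Ckm had medians of 0.221 and 0.625 CPM, and Myh1 was at 0 in 2 libraries. Ucp1, which defines brown adipocytes, was at 0 in 7 libraries and at most 8.32 CPM, in NCD control 3. The brown adipocyte list (6 genes) nevertheless summed to 1925 to 3201 CPM, most of it Cidea at 1903 to 3180 CPM. Otop1 was at 8.77 to 22.9 CPM, and Cox8b, Elovl3 and Cpt1b were at 7.33 CPM or less. The summed white adipocyte markers (9 genes) ranged from 556 to 1531 CPM. Their part in the results was not tested, and the main results are also given without NCD control 3 and HFD control 4.

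Per effective length, the messengers spanned 3 ranges. TPM, a level relative to effective length and library size, averaged 717 ± 137 for mt-Nd4l, 714 ± 134 for mt-Nd1, 623 ± 106 for mt-Nd3, 477 ± 83.0 for mt-Nd4 and 453 ± 77.9 for mt-Nd2 (SD, n = 16). mt-Nd5 followed at 173 ± 37.2 TPM, and the minus-strand mt-Nd6 was lowest at 37.9 ± 10.1 TPM (SD, n = 16). mt-Nd2 was above mt-Nd5, and mt-Nd5 above mt-Nd6, in 16 of 16 libraries. The other neighbours were less firmly ordered: mt-Nd1 was below mt-Nd4l in 7 of 16 libraries, above mt-Nd3 in 13, and mt-Nd3 was above mt-Nd4 in 14. mt-Nd4 exceeded mt-Nd2 in 12. Effective lengths were 60 to 63 bases for mt-Nd4l and 81 to 88 for mt-Nd3, against 1241 to 1308 for mt-Nd5, so TPM of the short genes depends strongly on the assumed fragment length.

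**Figure D1:**
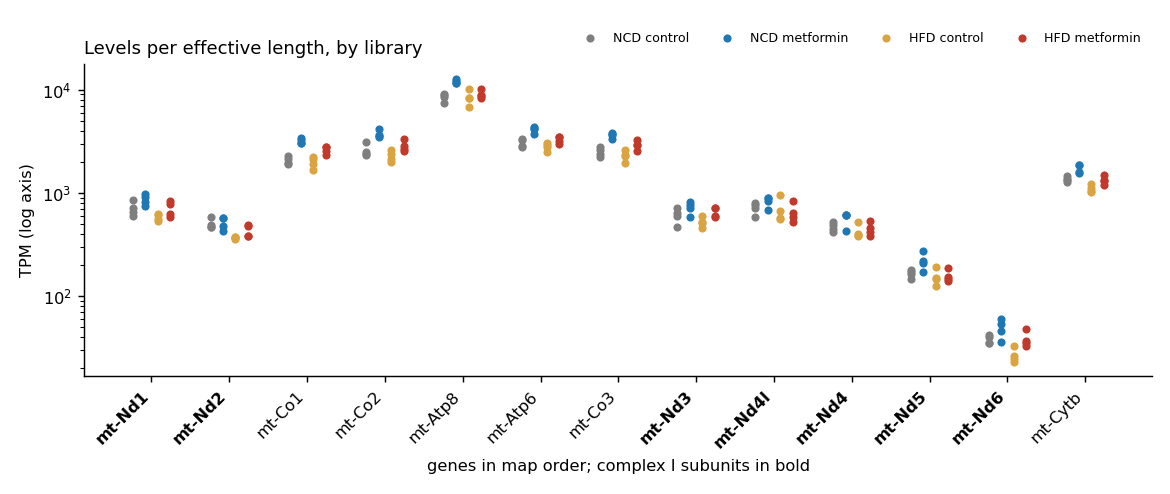
TPM (log axis) of the 13 protein-coding genes of the mitochondrial genome in map order, 1 point per library, coloured by group. The complex I genes, in bold, lie below mt-Co1, mt-Co2, mt-Co3, mt-Atp6, mt-Atp8 and mt-Cytb, with mt-Nd6 lowest at 22.9 to 59.7 TPM.

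With metformin on NCD, 3 of the 7 messengers rose (mt-Nd1, mt-Nd4 and mt-Nd5), and on HFD none passed the test although all 7 fold changes were positive. Averaged over both diets, 5 of 7 rose, by 25.7 to 46.5%, and mt-Nd2 and mt-Nd4l did not pass. No member passed the test for diet. The members are described below by their place in the enzyme, with levels in CPM after TMM scaling (scaling for differences in RNA composition), listed for libraries 1 to 4 of each group.

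**Figure D2:**
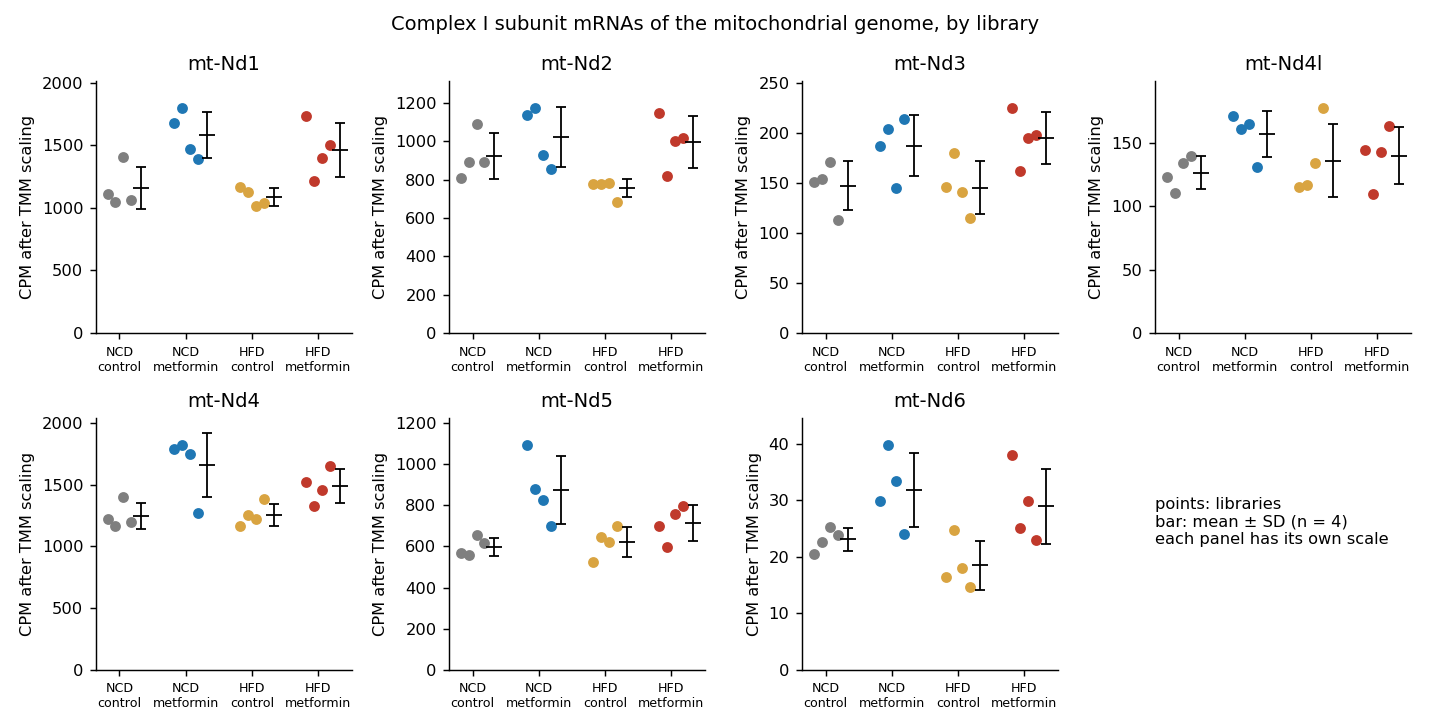
Levels (CPM after TMM scaling) of each complex I gene by group, with 1 point per library and the mean ± SD beside it (n = 4). For mt-Nd5 all NCD metformin libraries, from 701 to 1094 CPM, lie above all NCD control libraries.

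mt-Nd1 forms the part of the membrane arm next to the ubiquinone site. On NCD it stood at 1113, 1047, 1407 and 1066 CPM in control and at 1677, 1798, 1468 and 1395 CPM with metformin. NCD control 3 was the high control and overlapped the lowest metformin library. mt-Nd1 rose by 0.45 ± 0.12 on the log2 scale (SE, 95% interval 0.19 to 0.71, adjusted p = 0.0332, edgeR quasi-likelihood test with Benjamini-Hochberg adjustment), and by 0.55 without that library. On HFD it was 1168, 1124, 1017 and 1040 CPM in control and 1735, 1211, 1398 and 1504 CPM with metformin. Groups did not overlap there, yet its log2 fold change of 0.43 ± 0.12 (SE) did not pass (adjusted p = 0.164, edgeR).

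mt-Nd3, mt-Nd6 and mt-Nd4l are the small subunits of the proximal membrane arm. mt-Nd3, which carries a loop near the ubiquinone cavity, was at 152, 154, 172 and 113 CPM in NCD control and at 187, 204, 146 and 214 CPM in NCD metformin, so that the groups overlapped through NCD metformin 3. Its HFD levels were 147, 180.1, 141 and 115 CPM in control and at 225, 162, 195 and 199 CPM with metformin, overlapping through HFD control 2. Its log2 fold changes of 0.35 ± 0.16 on NCD and 0.42 ± 0.16 on HFD (SE) did not pass (adjusted p = 0.169 and 0.278, edgeR).

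mt-Nd6, the only member read from the minus strand, was at 20.5, 22.6, 25.2 and 23.9 CPM in NCD control and at 29.9, 39.8, 33.4 and 24.02 CPM in NCD metformin. Only NCD metformin 4 lay within the control range. HFD levels were 16.4, 24.7, 18.03 and 14.6 CPM in control and at 37.9, 25.1, 29.8 and 22.9 CPM with metformin, where HFD control 2 lay above HFD metformin 4. It had the highest fold change of the members on HFD, 0.64 ± 0.18 on the log2 scale (SE, adjusted p = 0.164, edgeR), and 0.46 ± 0.18 on NCD (adjusted p = 0.109), neither past the threshold.

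mt-Nd4l, which overlaps mt-Nd4 on the genome as printed above, was at 123, 110, 134 and 139 CPM in NCD control and at 171, 161, 165 and 130 CPM in NCD metformin. NCD metformin 4 again lay among the controls. On HFD it was at 115, 117, 134 and 177 CPM in control and at 144, 109.5, 142 and 163 CPM with metformin, and the groups overlapped widely. Its log2 fold changes were 0.31 ± 0.15 on NCD and 0.04 ± 0.15 on HFD (SE, adjusted p = 0.184 and 0.939, edgeR), the latter 0.19 without HFD control 4, the shallowest library and the highest control.

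mt-Nd2, mt-Nd4 and mt-Nd5 are the antiporter-like subunits, each with a proton channel, lined up toward the tip of the membrane arm. mt-Nd2 was at 810.2, 890.3, 1091 and 894 CPM in NCD control and at 1134, 1173, 926 and 855 CPM in NCD metformin, and the groups overlapped. It had the smallest fold change of the members on NCD, 0.15 ± 0.13 on the log2 scale (SE, adjusted p = 0.469, edgeR). Levels on HFD were 774, 779, 779.5 and 684 CPM in control and at 1146, 819, 999 and 1018 CPM with metformin, with every metformin library above every control, and its log2 fold change of 0.40 ± 0.13 (SE) had an adjusted p of 0.197 (edgeR).

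mt-Nd4 was at 1223, 1165, 1398 and 1196 CPM in NCD control and at 1792, 1823, 1745 and 1272 CPM in NCD metformin. Of the metformin libraries 3 lay close together above all controls, and NCD metformin 4 lay below NCD control 3. mt-Nd4 rose by 0.41 ± 0.11 on the log2 scale (SE, 95% interval 0.17 to 0.65, adjusted p = 0.0338, edgeR). On HFD it was at 1168, 1254, 1221 and 1381 CPM in control and at 1522, 1326, 1456 and 1655 CPM with metformin, overlapping through HFD control 4, and had 0.25 ± 0.11 (SE, adjusted p = 0.381, edgeR).

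mt-Nd5, the most distal subunit, was at 567, 557, 653 and 615 CPM in NCD control and at 1094, 879, 825 and 701 CPM in NCD metformin. It was the only member whose groups did not overlap on NCD (8.73% of all tested genes had metformin libraries all above the controls). Its rise of 0.55 ± 0.13 on the log2 scale (SE, 95% interval 0.27 to 0.83, adjusted p = 0.0213, edgeR) was the highest of the 7. The HFD libraries were at 525, 644, 622 and 698 CPM in control and at 697, 597, 760.0 and 796 CPM with metformin. These groups overlapped, and the log2 fold change was 0.20 ± 0.13 (SE, adjusted p = 0.565, edgeR).

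On NCD, 3 of 7 members were called higher against 4.01% of all 12506 genes tested, with a median log2 fold change of 0.41 beside -0.003 for all genes. These calls depended on single libraries: none of the 7 was called without NCD control 1, without NCD control 2, without NCD metformin 1 or without NCD metformin 2, and 1 without NCD control 4. Calls over all genes fell too: 1255 passed in either direction in the main fit, and 384, 564, 964, 180 and 925 in those fits, in that order. Without 1 library, log2 fold changes ran from 0.39 to 0.55 for mt-Nd1, 0.36 to 0.51 for mt-Nd4 and 0.42 to 0.63 for mt-Nd5. Of all marker lists screened, 2 had summed levels that did not overlap between the NCD groups, both lower with metformin and by a narrow gap. Among single genes, 9.82% of all tested lay lower without overlap. Macrophage markers (8 genes) were at 101.4 to 153 CPM in NCD control and 74.2 to 100.6 CPM in NCD metformin. Luminal epithelial markers (6 genes) were at 400.9 to 425 and 332 to 398.1 CPM. Among them Elf5 was uneven over the 16 libraries, at 0 in 2 of them and at most 66.5 CPM (median 32.5 CPM). Its part in that gap was not tested. Endothelial markers (8 genes) were at 62.02 to 83.4 and 74.7 to 125 CPM. White adipocyte markers averaged 876 CPM in control and 1105 CPM with metformin on NCD, and 768 and 1019.9 CPM on HFD, with overlapping libraries on both diets. Fibroblast markers (6 genes) averaged 337 and 282 CPM on NCD and 390.3 and 279 CPM on HFD, also with overlap. The part of these cells in the result was not tested. On HFD, 0 of 7 were called, where 0.128% of all genes were called higher, and the median was 0.40. At an unadjusted p under 0.05 there were 5 of 7 higher on HFD (7.16% of all genes), and DESeq2 also called 0. The metformin and control libraries of mt-Nd1 and mt-Nd2 did not overlap on HFD, as in 3.72% of all genes in that direction.

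Averaged over the diets, 5 of 7 were called higher against 5.82% of all genes, with a median of 0.37. mt-Nd6 rose by 0.55 ± 0.13 on the log2 scale (SE, adjusted p = 0.0159, edgeR) and mt-Nd1 by 0.44 ± 0.09 (adjusted p = 0.00709), and both calls held in 26 of 26 alternatives. mt-Nd3 rose by 0.38 ± 0.11 (adjusted p = 0.0391), mt-Nd5 by 0.37 ± 0.09 (0.0209) and mt-Nd4 by 0.33 ± 0.08 (0.0189, edgeR). The call of mt-Nd3 was kept in 12 of 26 alternatives and those of mt-Nd4 and mt-Nd5 in 25. mt-Nd2 had 0.27 ± 0.09 (adjusted p = 0.0548) and mt-Nd4l 0.18 ± 0.11 (adjusted p = 0.278, edgeR). Without both NCD control 3 and HFD control 4, 4 of the 7 were called.

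The fold changes on the 2 diets were compared directly by the interaction, and 0 of 7 members passed, as did 0 of 12506 genes (percent called 0, with 1243 genes at an unadjusted p under 0.05, and 22 by DESeq2). The widest differences were those of mt-Nd5, -0.35 ± 0.19 on the log2 scale for HFD minus NCD (SE, 95% interval -0.75 to 0.04), and of mt-Nd4l, -0.27 ± 0.21. mt-Nd2 had 0.25 ± 0.18. The interval of mt-Nd5 includes differences larger than its fold change on NCD.

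Title numbers leave several gaps, and no label names a batch. The widest gap, between 10 and 14, may mark one, and libraries on either side of it are unevenly spread over the groups. On NCD, the ratio of metformin to control mean CPM of mt-Nd5 was 1.67 below the gap (3 controls, 2 metformin) and 1.24 above it (1 control, 2 metformin). It was 1.46 and 1.34 for mt-Nd1, and 1.43 and 1.26 for mt-Nd4. With a term for the gap the called members on NCD were again 3, with log2 fold changes of 0.50, 0.43 and 0.55 for mt-Nd1, mt-Nd4 and mt-Nd5.

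HFD against NCD gave 0 of 7 called without metformin, where 0.0640% of all genes were called, 0 of 7 with metformin (2.36%) and 0 of 7 averaged over treatments (0.936%). Without metformin 1 of 7 had an unadjusted p under 0.05 (7.04% of all genes), mt-Nd2, with -0.29 ± 0.13 on the log2 scale (SE, adjusted p = 0.667, edgeR). Every HFD control library of mt-Nd2 lay below every NCD control library, as in 2.25% of all genes. With metformin 1 of 7 had an unadjusted p under 0.05 (19.2% of all genes), mt-Nd5, with -0.30 ± 0.13 (SE, unadjusted p = 0.0385, adjusted p = 0.227, edgeR). DESeq2 called 0 of the 7 in each of these contrasts.

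**Figure D3:**
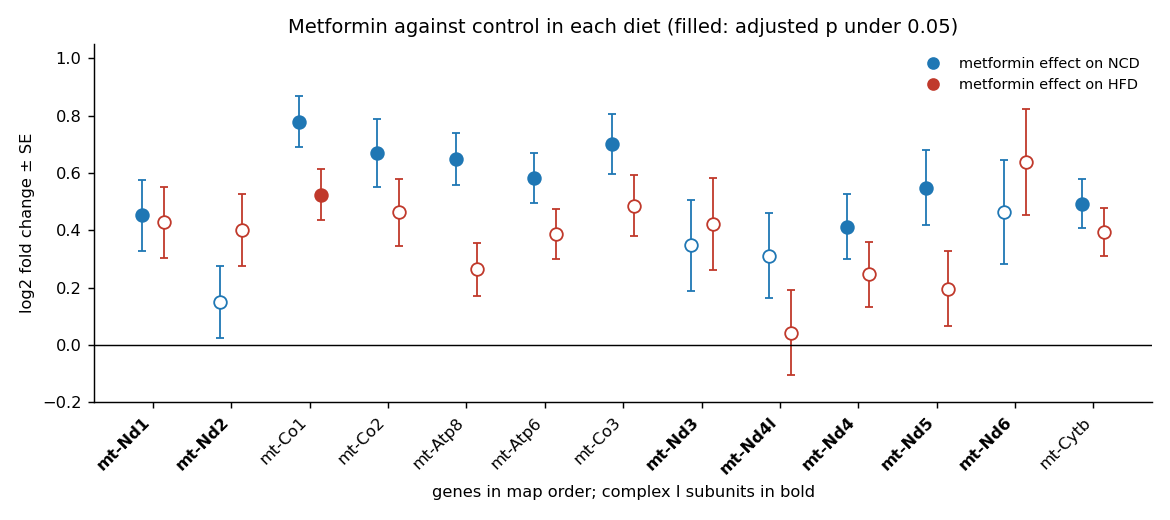
Log2 fold change ± SE of metformin against control on NCD (blue) and HFD (red) for the 13 protein-coding genes in map order, with complex I genes in bold and filled points where the adjusted p is under 0.05 (edgeR). On NCD the complex I genes run from 0.15 to 0.55 and the others from 0.49 to 0.78.

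The other 6 messengers of the genome, for subunits of complexes III, IV and V, were compared as products of the same genome. All 6 lie on the plus strand and share its polycistronic RNAs with every member except mt-Nd6, which is read from the minus strand. On NCD all 6 were called higher, with a median log2 fold change of 0.66 and a range from 0.49 for mt-Cytb to 0.78 for mt-Co1. On HFD only mt-Co1 was called, with 0.52 ± 0.09 (SE, adjusted p = 0.0205, edgeR), and the median was 0.43. Averaged over diets, the metformin libraries of both diets lay above the control libraries of both diets for each of the other 6 and for 0 of the 7 complex I messengers (0.784% of all genes in that direction). As a share of all gene counts, the 7 complex I messengers went on NCD from 0.458 ± 0.0538% without to 0.570 ± 0.0579% with metformin, and on HFD from 0.390 ± 0.0241% to 0.461 ± 0.0550% (SD, n = 4), ratios of 1.25 and 1.18. The other 6 went from 1.93 ± 0.179 to 2.94 ± 0.178% on NCD and from 1.79 ± 0.170 to 2.34 ± 0.164% on HFD (SD, n = 4).

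Within the counts of all 13 messengers, a measure that no scaling to nuclear genes affects, complex I took 19.1 ± 0.645% without and 16.2 ± 1.55% with metformin on NCD, and 17.9 ± 1.29% without and 16.4 ± 1.59% with it on HFD (SD, n = 4). It was lowest, at 13.9%, in NCD metformin 4. The share of mt-Nd4 was lower with metformin by 0.745 percentage points averaged over diets (exact permutation test within diets, two-sided, p = 0.00531, adjusted p = 0.04 over 14 tests). That of mt-Nd4l was lower by 0.132 points (exact permutation p = 0.00571, adjusted p = 0.04). For mt-Nd2 the difference of -0.639 points had an adjusted p of 0.0629 (exact permutation test), and for mt-Nd1, mt-Nd3, mt-Nd5 and mt-Nd6 the adjusted p was between 0.227 and 0.891. The calls of mt-Nd4 and mt-Nd4l each ended in 12 of the 16 fits that left out 1 library, with differences from -0.862 to -0.573 and from -0.157 to -0.0990 points. Both also ended as a share of the summed TPM of the 13 messengers, where the differences were -0.207 and -0.568 points (adjusted p = 0.0914 for each, exact permutation test). Of that sum mt-Atp8 made up 34.9 to 41.6%, with an effective length of only 24 to 26 bases. These TPM shares therefore depend strongly on the assumed fragment length. As a share of the 7 members only they were -0.520 and -0.379 points (adjusted p = 0.779 and 0.466, exact permutation test).

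Single diets gave less. On NCD mt-Nd2 took 3.83, 4.14, 4.42 and 4.32% of the counts of the 13 messengers in control and 3.19, 3.29, 2.95 and 2.59% with metformin, and the groups did not overlap. The exact two-sided permutation test gave p = 0.0286, the smallest that 4 against 4 libraries allow, and adjusted p = 0.267 over 28 tests. In HFD control mt-Nd2 took 3.76, 3.04, 3.55 and 3.11%, also below every NCD control library (exact permutation p = 0.0286, adjusted p = 0.267). In HFD metformin it took 3.74, 2.76, 3.24 and 3.29%, within the range of HFD control except for HFD metformin 2. NCD control was thus the group with the highest mt-Nd2 share, as the plot of shares shows.

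**Figure D4:**
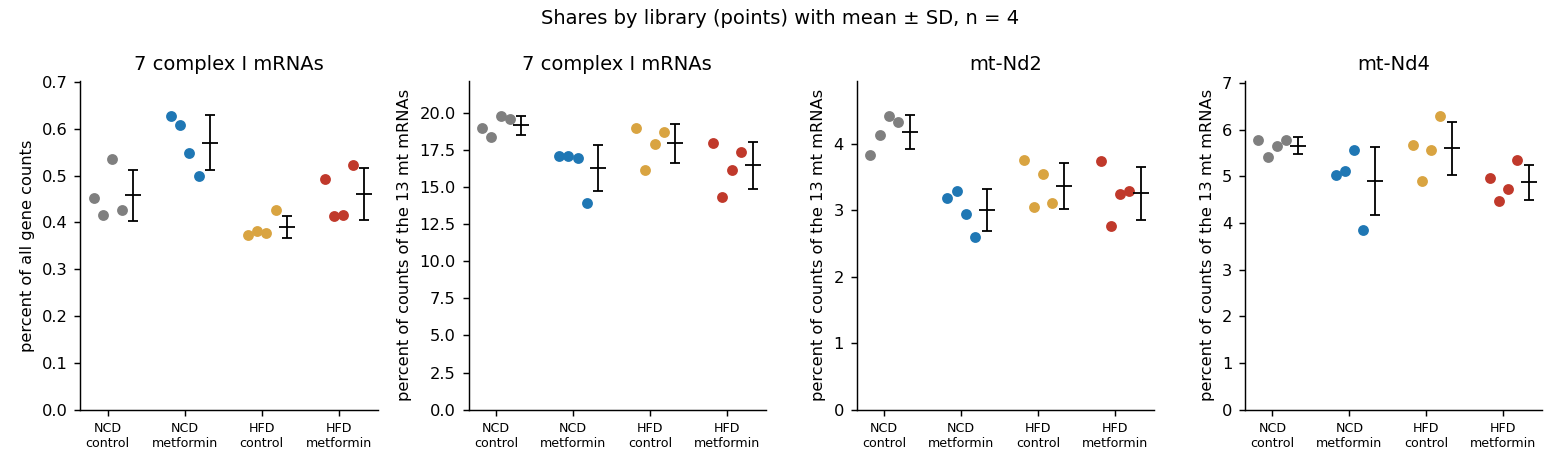
Share of the 7 complex I messengers in all gene counts and in the counts of the 13 mitochondrial messengers, and the share of mt-Nd2 and of mt-Nd4 in the latter, in percent, with 1 point per library and mean ± SD (n = 4). The complex I share of all counts is higher with metformin in group means, and its share of the 13 messengers is lower.

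The ratio between 2 members in a library shows how tightly their counts moved together, free of scaling. Within groups, the log2 ratio of mt-Nd1 to mt-Nd2, neighbours on the map, varied least, with an SD of 0.082. That of mt-Nd4 to mt-Nd5 had 0.114, and that of mt-Nd4l to mt-Nd4, whose genes overlap, 0.143. Pairs that are not neighbours had similar values: 0.139 for mt-Nd4l to mt-Nd5, 0.146 for mt-Nd1 to mt-Nd4 and 0.149 for mt-Nd2 to mt-Nd4. The loosest pairs were mt-Nd4l to mt-Nd6 with 0.363 and mt-Nd3 to mt-Nd4l with 0.380. mt-Nd3 and mt-Nd4l are also neighbours on the map, with a gap of 70 bases against 206 between mt-Nd1 and mt-Nd2. The genes of these loose pairs had the fewest counts of the members. The mt-Nd1 to mt-Nd2 ratio was higher with metformin by 0.17 on the log2 scale averaged over diets (exact permutation p = 0.0131), which did not hold after adjustment over 42 tests (adjusted p = 0.28, the lowest among them). On NCD the mean log2 ratio was 0.33 in control and 0.64 with metformin, and these libraries did not overlap. On HFD it was 0.53 and 0.55, and they did. The mt-Nd2 to mt-Nd5 ratio also had no overlap on NCD, with means of 0.62 in control and 0.23 with metformin. Its HFD means went the other way, 0.28 and 0.48, with overlap. Averaged over diets its difference was -0.10 (exact permutation test, adjusted p = 0.69). The difference between the diets was not tested for either ratio.

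**Figure D5:**
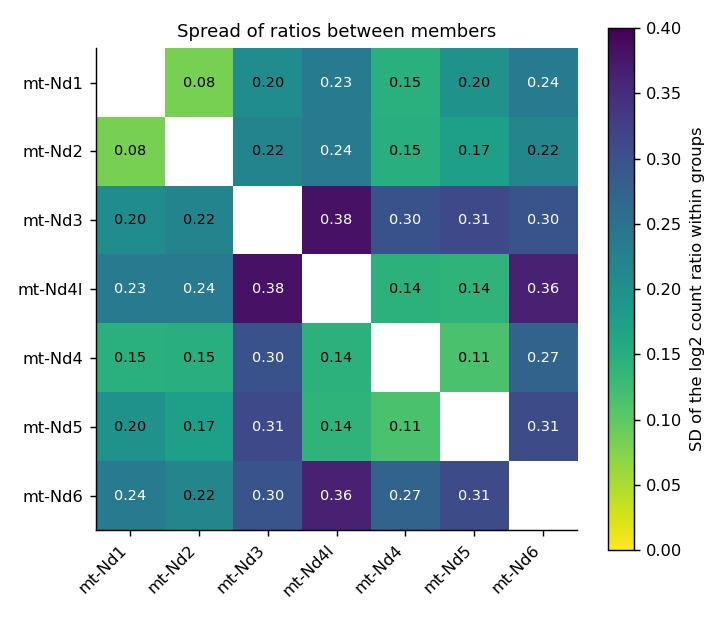
SD within groups of the log2 ratio of counts between each pair of complex I genes, over 16 libraries. The mt-Nd1 and mt-Nd2 pair has the lowest value, 0.08, and the mt-Nd3 and mt-Nd4l pair the highest, 0.38.

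Nuclear genes of complex I, whose products assemble with the mitochondrial subunits, were counted in the same fit. The shares of all tested genes called higher, against which these counts are to be read, were 4.01% on NCD and 0.128% on HFD. At an unadjusted p under 0.05, in either direction, the shares were 27.9% on NCD and 12.8% on HFD. Of 7 nuclear core subunits 3 rose on NCD (median 0.39), Ndufs7 by 0.43, Ndufs8 by 0.42 and Ndufv1 by 0.39 on the log2 scale, subunits of the arm that oxidises NADH and carries the iron-sulfur clusters. On HFD 1 of 7 rose, Ndufs7 by 0.56 ± 0.10 (SE, adjusted p = 0.0393, edgeR), with a median of 0.38. The median of the 7 mitochondrial subunits, 0.41 on NCD and 0.40 on HFD, was close to these. Of 30 accessory subunits 5 were called higher on NCD (median 0.34), among them Ndufb9 (0.56), Ndufb8 (0.54) and Ndufa10 (0.42), and 0 on HFD (median 0.30, with 12 at an unadjusted p under 0.05).

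The same shares of all genes called higher, 4.01% on NCD and 0.128% on HFD, apply to the lists that follow. So do those at an unadjusted p under 0.05 in either direction, 27.9% on NCD and 12.8% on HFD. Of 18 tested assembly factors, which build the complex without staying in it, 3 rose on NCD. They were Ndufaf4 by 0.71, Ndufaf7 by 0.64 and Ecsit by 0.64 on the log2 scale. On HFD 0 of the 18 rose, with 3 at an unadjusted p under 0.05. Of 10 genes of mitochondrial transcription, such as the RNA polymerase Polrmt and the factor Tfam, 0 were called on either diet, with medians of 0.14 and 0.13 and with 1 and 2 at an unadjusted p under 0.05 (DESeq2 also called 0 on both). Of 21 genes of mitochondrial RNA processing and stability 4 rose on NCD, among them Lrpprc, which stabilises mitochondrial messengers (0.38 ± 0.10, SE, adjusted p = 0.0309, edgeR), Ptcd2 (0.35), Tbrg4 (0.45) and Hsd17b10, a part of mitochondrial RNase P (0.45). None of these 21 was called on HFD, with 4 at an unadjusted p under 0.05.

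Of 11 genes of mitochondrial DNA replication and the nucleoid 1 rose on NCD, beside 4.01% of all genes. It was the protease gene Lonp1 (0.47 ± 0.10, SE, adjusted p = 0.0132, edgeR). On HFD 0 of the 11 rose, and 1 had an unadjusted p under 0.05 (12.8% of all genes). Of 7 tested regulators of mitochondrial biogenesis 1 fell on NCD, where 6.03% of all genes were called lower. It was Gabpa, which encodes the DNA-binding subunit of nuclear respiratory factor 2, by 0.55 on the log2 scale (adjusted p = 0.0387, edgeR). On HFD 0 of these regulators changed, with 0 at an unadjusted p under 0.05. Their medians were -0.06 on NCD and -0.11 on HFD. For comparison, DESeq2 called 0 of the accessory, processing, assembly and biogenesis genes on HFD, and 1 of the replication genes.

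The nuclear genes whose levels ran most like the mean log2 CPM of the 7 members over the 16 libraries were Gnpat, a peroxisomal enzyme of ether lipid synthesis (Pearson's r = 0.89), Prom2 (0.88), Dlat, a subunit of pyruvate dehydrogenase (0.86), Bckdhb, a subunit of the branched-chain ketoacid dehydrogenase (0.86), Ramp1 (0.85), Chchd10 (0.85), Cox6a1, a subunit of cytochrome c oxidase (0.85), and Aarsd1 (0.84), out of 10440 genes compared. The points share libraries, scaling and group differences, and r is given as a description.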

How the data were processed

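Total RNA of whole glands was extracted with a Qiagen RNeasy Mini kit, and libraries were prepared with a directional NEBNext Ultra II kit (labels' protocols). Per the file headers, each deposited file gives every transcript its estimated count and its TPM, which the authors computed over effective coding length. The submitters' processing notes name Salmon 1.3.0, DESeq2 1.28.1 and GRCm38.p6. For strand and bias the options used are not given in the sources here. The 58204 listed transcripts are coding sequences, with a length within 3 bases of the annotated one for 56929 of 56929 that could be compared. After matching 57452 of them to GENCODE M21, their estimated counts were added up per gene (22196 genes) and rounded. The 752 unmatched transcripts held 0.165 to 0.218% of counts.

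The tests used edgeR 4.0.16 under R 4.3.3, by quasi-likelihood, with 4 group means fitted to 16 libraries after filterByExpr and TMM. They were two-sided, with Benjamini-Hochberg adjustment over 12506 genes, and called at an adjusted p under 0.05. Shares and ratios were compared by exact permutation. Alternatives were DESeq2 1.42.0, other scalings and filters, TPM-based counts and left-out libraries. The script was tested on simulated data. No libraries were alike enough to be duplicates (lowest chi-square per degree of freedom 12.54, 120 pairs). A count of 3 corresponds to 0.0766 to 0.347 CPM. Without molecular identifiers, precision from depth covers counting error only. Members and gene lists were chosen with earlier results of these data known. Named genes are the 7 members, up to 4 of each list with the lowest p, and the 8 nuclear genes of at least 1 CPM most correlated with the members.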

Additional observations from a re-analysis of the deposited data

Results flagged for a closer look

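Of 36 groups of 4 libraries screened for a single library far from the others, 3 were flagged, and chance flags about 1 in 20 groups. For mt-Nd2 in HFD control, HFD control 4, the shallowest library, stood at 684 CPM and the others between 774 and 779.5 CPM. For mt-Nd4 in NCD metformin, NCD metformin 4 stood at 1272 CPM and the others between 1745 and 1823 CPM, and without it the log2 fold change of mt-Nd4 on NCD was 0.51. The share of the 7 complex I messengers among the counts of the 13 mitochondrial messengers was 13.9% in NCD metformin 4 and between 16.9 and 17.1% in the other libraries of that group.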

How the results depend on the processing

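The lowest count of a member was 131, for mt-Nd6 in HFD control 4, and the part of nuclear copies in the counts was not measured. No paired analysis was possible because no label pairs libraries across groups. Leaving out both NCD control 3 and HFD control 4, removing the GC and length trend, and permuting within diets were chosen after seeing the data. In all, 1336 of 1527 alternative values were counted as the same as the main value. For fold changes and averaged shares this meant the same direction and the same side of the threshold. For numbers of called genes it meant an equal or near number. For shares by single diet it meant the same direction only, and for summed shares a ratio within the SD of the main ratio. For values not counted as the same, the cause was not tested unless named.

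With metformin on NCD the 3 called members were 1 with library size only and 5 with the GC and length trend removed. They ranged from 0 to 3 when 1 library was left out, where 180 to 1461 of all genes were called in either direction. Averaged over diets the 5 called became 2 with library size only, and diet averaged over treatments then gave 3, all lower, where that scaling moved the median of all genes to -0.16 (diet without metformin) and -0.18 (with metformin). mt-Nd4l on HFD had -0.047 with library size only and -0.063 with the GC and length trend removed, and from -0.040 to 0.19 without 1 library. The interaction of mt-Nd2 was -0.056 with that trend removed.

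On NCD the called nuclear core subunits were 1 with library size only, with no filter on low counts, in counts rebuilt from TPM and with the GC and length trend removed, and 5 by DESeq2 (0 to 3 without 1 library). Accessory subunits were 2 with library size only, 3 with no filter, 3 in rebuilt counts, and 9 by DESeq2 and without both libraries named above (0 to 7 without 1 library). Processing genes were 0 with library size only, 2 with no filter, 1 in rebuilt counts, 1 without both libraries and 2 with the GC and length trend removed (0 to 4 without 1 library). Transcription genes were 1 in rebuilt counts. Biogenesis regulators were 0 with no filter, in rebuilt counts and with a term for the title-number gap (0 to 1 without 1 library). Without 1 library, assembly factors were 0 to 3 and replication genes 0 to 2.

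On HFD the called other mitochondrial messengers were 0 with library size only, with no filter, with only the 2 groups compared, without both libraries and with the GC and length trend removed, and 5 by DESeq2 (0 to 3 without 1 library). Nuclear core subunits were 0 in these 5 settings, with RLE size factors and in rebuilt counts, and 3 by DESeq2 (0 to 1 without 1 library). Replication genes were 1 by DESeq2.

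As a share of the 7 members only, where values must sum to a constant, differences with metformin turned positive: 1.42 points for mt-Nd1, 0.451 for mt-Nd4, 1.60 for mt-Nd5 and 0.0269 for mt-Nd6 on NCD, and 1.97 for mt-Nd1, 0.998 for mt-Nd2 and 0.259 for mt-Nd3 on HFD. As a share of summed TPM, of which mt-Atp8 holds a large part, they were 0.0988 for mt-Nd1, 0.0290 for mt-Nd2 and 0.168 for mt-Nd3 on HFD. Without 1 library the share of counts on HFD ranged from -0.359 to 0.202 points for mt-Nd1, from -0.267 to 0.0573 for mt-Nd2 and from -0.0465 to 0.0250 for mt-Nd3, and on NCD from -0.314 to 0.00247 for mt-Nd5.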

Other observations

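Averaged over diets, more nuclear genes of complex I passed with metformin than on either diet alone: 6 of 7 core subunits rose (median log2 fold change 0.37), as did 11 of 30 accessory subunits (median 0.33) and 4 of 18 assembly factors (median 0.26), beside 5.82% of all genes called higher. Of mitochondrial RNA processing and stability genes 6 of 21 rose (median 0.21), and of mitochondrial transcription genes 2 of 10 (median 0.09). Of replication and nucleoid genes 1 of 11 rose (median 0.04), and of the 7 tested regulators of biogenesis 0 (median -0.08). Among these regulators 1 had an unadjusted p under 0.05 by edgeR (28.9% of all genes), and 1 was called lower by DESeq2. The 6 other mitochondrial messengers all rose, with a median of 0.53.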
